A study of Mus musculus with 12 samples.

Results

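The circadian clock genes described here are 10 listed mouse genes, Arntl, Clock, Per1, Per2, Per3, Cry1, Cry2, Dbp, Tef and Bhlhe40, taken by name from the 55487 genes of a read-count table. All 10 were found by their symbol and all 10 passed the filter on low counts in every comparison, so none is left out below. RNA sequencing had been done on 12 libraries in 4 groups of 3. They were Hepa1 cells in ferroptotic medium, Hepa1 cells in control medium, MEFs in ferroptotic medium and MEFs in control medium. Hepa1 is an established line of mouse hepatoma cells with a wild-type label. MEFs are embryonic fibroblasts, here primary ones that carry a Bach1 knockout label in both media, so cell type and Bach1 genotype cannot be told apart. The ferroptotic medium had been conditioned for 48 h by immortalised MEFs that re-expressed Bach1, and the control medium by immortalised control MEFs, both with 10% fetal bovine serum. Cells of all groups received such medium fresh every day over 4 days. Vitamin E at 0.4 mg/mL and 2-mercaptoethanol at 0.1 mM were present throughout. The labels give no strain, age, passage or clock time of harvest, and name no synchronising step besides the daily fresh medium. Each library is thus a single reading at an unstated phase of any rhythm.

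The clock of a mammalian cell is a loop of transcription and repression. BMAL1, the product of Arntl, pairs with CLOCK and activates genes that carry E-boxes, among them the Per, Cry, Bhlhe40 and Dbp genes, and the PER and CRY proteins then return to the nucleus and repress that pair. A further loop runs through REV-ERB repressors and ROR activators, which share response elements in genes such as Arntl, and an output arm runs through DBP, TEF and HLF, which activate D-box genes that NFIL3 represses. Cultured fibroblasts and liver cells both run this loop, and changes of serum are known to set its phase.

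Library totals ran from 18.58 M to 23.40 M reads assigned to genes, so 3 reads in a single library equal 0.128 to 0.161 CPM (counts scaled to library size). Bach1 averaged 119 ± 5.40 CPM in Hepa1 in ferroptotic and 145 ± 4.32 CPM in Hepa1 in control medium. It averaged 73.5 ± 2.94 CPM in MEFs in ferroptotic and 79.4 ± 4.62 CPM in MEFs in control medium (SD, n = 3 each). These counts cover whole genes, so they do not check the deletion. Hepa1, labelled as hepatoma, had 0 reads of the hepatocyte genes Apoa1, Ttr and Serpina1a in both media. The summed level of 10 hepatocyte markers was 1649 to 1800 CPM in Hepa1 in ferroptotic and 485 to 501 CPM in Hepa1 in control medium, with 5 and 7 of them read. Trf was the highest of these in Hepa1, with 405 ± 19.7 and 120 ± 3.16 CPM per kilobase of exon in ferroptotic and control medium. On that scale Alb had 133 ± 5.88 and 14.4 ± 1.55 in Hepa1 in ferroptotic and control medium. Fgb went the other way, with 0.0180 ± 0.0156 and 0.0801 ± 0.0138. In MEFs the summed level was 8.38 to 12.1 CPM in ferroptotic and 23.6 to 25.7 CPM in control medium, with 3 and 5 read and Alb at 0. The summed level of 10 fibroblast markers was 539 to 562 and 406 to 465 CPM in Hepa1 in ferroptotic and control medium, and 23097 to 23727 and 24332 to 25129 CPM in MEFs in ferroptotic and control medium. All 10 were read in MEFs, and in Hepa1 8 were read in ferroptotic and 7 in control medium, with Lum and Fap at 0 in both. Dcn went the other way, with 330 ± 22.0 and 294 ± 26.8 CPM in Hepa1 in ferroptotic and control medium, and 12.9 ± 1.61 and 3.75 ± 0.425 CPM in MEFs in ferroptotic and control medium (SD, n = 3 each). Fbln1 had 50.3 ± 1.33 CPM in Hepa1 and 16.8 ± 1.32 CPM in MEFs in ferroptotic medium, and 9.01 ± 1.91 CPM in Hepa1 and 28.1 ± 2.41 CPM in MEFs in control medium. The sum of 8 macrophage markers was 10.5 to 13.0 CPM in Hepa1 in ferroptotic and 26.9 to 32.9 CPM in Hepa1 in control medium, and 7.35 to 8.79 CPM in MEFs in ferroptotic and 4.14 to 5.16 CPM in MEFs in control medium, with Ptprc and C1qa at 0 in all groups. In Hepa1 2 of these were higher in ferroptotic medium, Lyz2 (3.40 ± 0.407 against 1.62 ± 0.129 CPM) and Adgre1 (118 against 2 reads), and 2 were lower, among them Cd68 (3.55 ± 0.314 against 25.2 ± 3.53 CPM). The part of these marker levels in the results below was not tested, and in bulk RNA fewer cells of a type and less RNA per cell cannot be told apart. Hepa1 ferroptotic replicate 3 held 368 reads of the collagen gene Col1a2, which is 0.128% of its mean level in MEFs in ferroptotic medium, against 19 and 23 reads in the other Hepa1 ferroptotic libraries and 12 to 13 reads in the Hepa1 control libraries. Without that library 6 clock genes were still called in Hepa1, the number found with it.

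The promoters of the clock genes carry some of the elements named above, and those of 5 members whose levels changed are printed here to show them. RefSeq (GRCm38.p6) gives 13 windows, each from 250 bases before to 50 bases after an annotated start, for 8 of the 10 genes. Both strands were searched for the E-box CACGTG, its variant CACGTT, the D-box TTANGTAA, the ROR elements TAGGTCA and TGGGTCA, and the cAMP response element TGACGTCA, none of which overlapped in these windows. Over all 32851 windows, the share with a match was 7.15% for CACGTG, 4.68% for CACGTT, 2.32% for TTANGTAA, 2.61% for TAGGTCA, 3.98% for TGGGTCA and 1.79% for TGACGTCA. A match to any of these elements in any window was present for 6 of the 8 genes. The share of all genes with any such match was not counted. The shares above are for single elements and windows, so they are no measure for this count. Per3 (chr4:151044616-151044915, minus strand) had a pair of D-boxes, which begin at -205 and -158 from its start. Arntl (chr7:113207261-113207560, plus strand) had a TAGGTCA element 30 bases after the start of the window's transcript. Tef had an E-box in both of its windows, of which that at chr15:81802423-81802722 (plus strand) is shown, and Per1 had an E-box in the window at chr11:69098699-69098998 (plus strand). Cry1 had both E-box forms and Cry2 the CACGTT form. The Dbp window (chr7:45704997-45705296, plus strand) and the 3 Clock windows had no match, which says only that these letters are absent there. In the lines that follow, capitals mark the matches and all sequences run 5′ to 3′.
Per3: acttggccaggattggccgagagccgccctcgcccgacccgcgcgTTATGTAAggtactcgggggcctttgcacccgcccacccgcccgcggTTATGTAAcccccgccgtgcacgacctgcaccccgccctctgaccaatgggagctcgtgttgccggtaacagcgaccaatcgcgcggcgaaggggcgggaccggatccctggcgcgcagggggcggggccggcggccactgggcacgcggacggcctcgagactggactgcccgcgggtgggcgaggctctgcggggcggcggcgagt
Arntl: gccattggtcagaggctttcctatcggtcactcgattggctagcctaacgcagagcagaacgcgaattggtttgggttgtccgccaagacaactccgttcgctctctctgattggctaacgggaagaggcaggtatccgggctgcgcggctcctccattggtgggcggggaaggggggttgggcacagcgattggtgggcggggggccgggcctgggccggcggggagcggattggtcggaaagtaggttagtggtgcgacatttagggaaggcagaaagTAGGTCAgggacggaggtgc
Tef: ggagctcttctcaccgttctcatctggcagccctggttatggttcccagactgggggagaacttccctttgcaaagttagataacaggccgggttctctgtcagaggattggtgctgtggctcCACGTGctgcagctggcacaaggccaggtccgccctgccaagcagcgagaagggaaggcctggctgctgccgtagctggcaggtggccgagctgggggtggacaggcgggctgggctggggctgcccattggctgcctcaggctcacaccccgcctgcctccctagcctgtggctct
Per1: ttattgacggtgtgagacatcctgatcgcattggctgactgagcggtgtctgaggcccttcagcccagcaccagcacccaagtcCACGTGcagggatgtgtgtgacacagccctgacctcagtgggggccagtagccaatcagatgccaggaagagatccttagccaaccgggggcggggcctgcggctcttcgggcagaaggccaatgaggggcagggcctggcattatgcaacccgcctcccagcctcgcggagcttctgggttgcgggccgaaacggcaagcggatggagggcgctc
Dbp: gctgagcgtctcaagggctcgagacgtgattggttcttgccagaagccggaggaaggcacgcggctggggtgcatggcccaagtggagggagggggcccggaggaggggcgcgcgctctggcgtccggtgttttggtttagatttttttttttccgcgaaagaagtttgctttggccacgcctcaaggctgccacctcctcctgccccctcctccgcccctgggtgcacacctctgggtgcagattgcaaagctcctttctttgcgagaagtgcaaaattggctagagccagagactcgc

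In Hepa1 cells the ferroptotic medium went with a large fall of Bhlhe40, a smaller fall of Per1, and rises of Dbp and Per2. Of the 10 clock genes, 2 rose and 4 fell (edgeR quasi-likelihood test, Benjamini-Hochberg adjusted p under 0.05), while 58.1% of the 13169 genes tested in Hepa1 were called, 29.3% higher and 28.8% lower. The members' count is thus near the share of all genes. The median log2 change of the 10 was -0.07 and the median size of change 0.22, against 0.00 and 0.22 over all genes tested. All 6 calls and their directions held in each of 14 alternative fits.

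**Figure D1:**
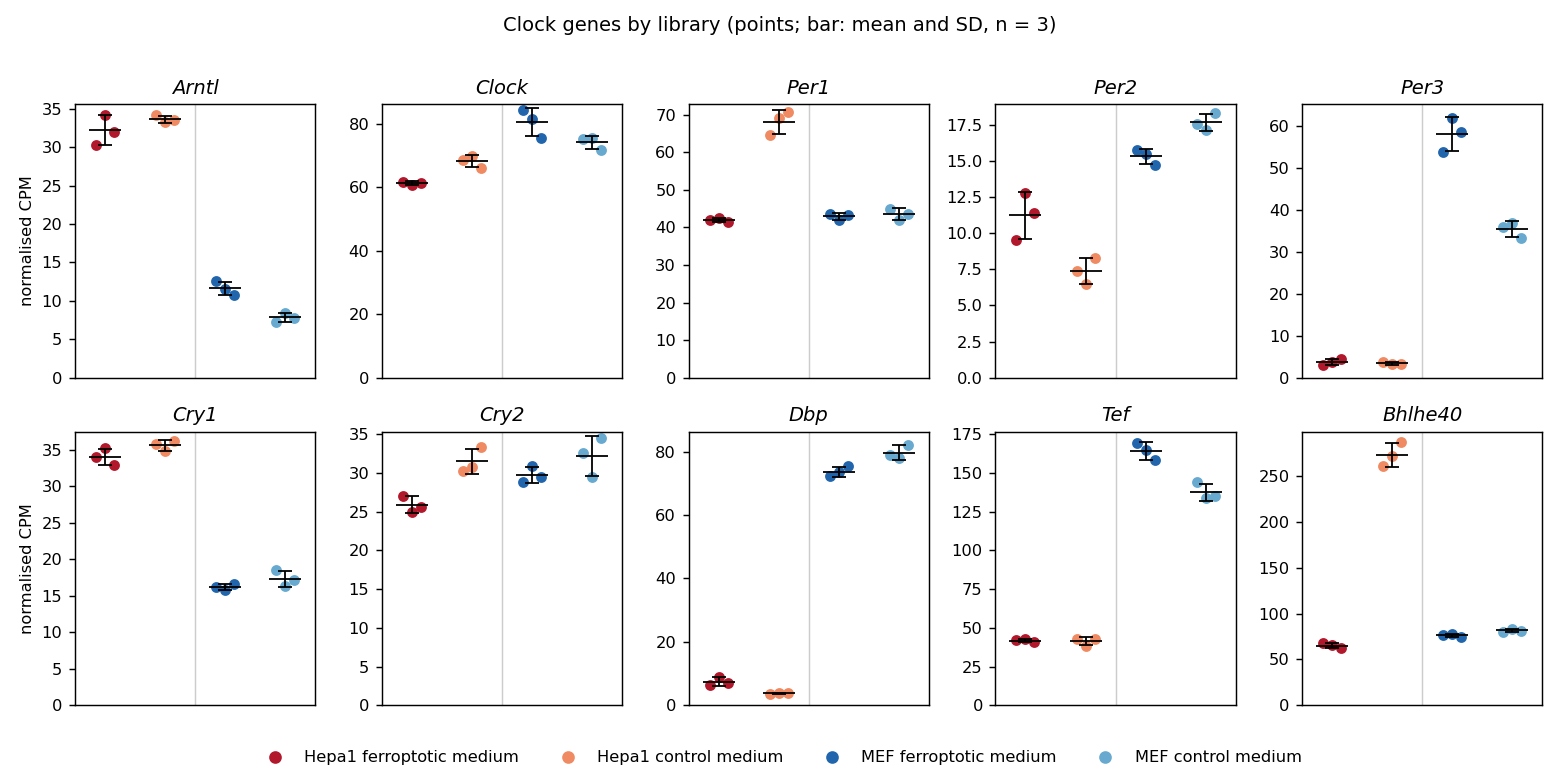
Normalised CPM of the 10 clock genes in each of the 12 libraries, with 1 panel per gene and a linear axis from 0. Points are libraries and black bars the mean and SD (n = 3); CPM were scaled within each cell type, and Bhlhe40 in Hepa1 (65.1 in ferroptotic against 273 in control medium) is the widest separation by medium.

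In MEFs, Per3, Arntl, Tef and Clock rose and Per2, Dbp and Bhlhe40 fell, so that 4 rose and 3 fell of 10, while 55.0% of the 14441 genes tested in MEFs were called, 27.8% higher and 27.2% lower. The median log2 change of the 10 was -0.06 and the median size 0.11, against 0.00 and 0.20 over all genes tested. The 3 falls depend on the scaling. Without scaling beyond total counts 4 members were called, all of them rises, and over all genes the split was 5211 higher and 2957 lower in place of 4009 and 3934. The median log2 change of all genes moved only to 0.07 under that scaling.

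Among the activators, Arntl, which encodes BMAL1, had 30.3, 34.2 and 32.0 CPM in Hepa1 in ferroptotic medium and 34.1, 33.3 and 33.5 CPM in Hepa1 in control medium. These ranges overlap and the log2 change was -0.07 (SE 0.0579, adjusted p = 0.348). In MEFs Arntl had 12.5, 11.5 and 10.8 CPM in ferroptotic and 7.28, 8.48 and 7.76 CPM in control medium. All MEF libraries in ferroptotic medium were higher than all those in control medium, a log2 change of 0.56 (SE 0.0899, adjusted p = 3.94e-07). Clock, which encodes the partner of BMAL1, had 61.8, 60.6 and 61.3 CPM in Hepa1 in ferroptotic and 68.7, 69.9 and 66.2 CPM in Hepa1 in control medium. It fell by 0.16 on the log2 scale (SE 0.0442, adjusted p = 0.00345), and the groups do not overlap. In MEFs Clock had 84.2, 81.5 and 75.6 CPM in ferroptotic and 75.1, 75.4 and 71.8 CPM in control medium, and the lowest ferroptotic library lies just above the highest control library. That rise of 0.12 (SE 0.0382, adjusted p = 0.00792) rests on single libraries, since Clock had a log2 change of 0.09 without MEF control replicate 3 (adjusted p = 0.0651) and of 0.08 without MEF ferroptotic replicate 1 (adjusted p = 0.113). Without scaling beyond totals it was 0.19 (adjusted p = 3.24e-05).

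The 3 Per genes, which encode the PERIOD repressors, did not move together. Per1, which is also an immediate target of cAMP and glucocorticoid signals, had 41.9, 42.6 and 41.6 CPM in Hepa1 in ferroptotic and 64.6, 69.1 and 70.7 CPM in Hepa1 in control medium. Every ferroptotic library was below every control library, a fall of 0.70 on the log2 scale (SE 0.0488, adjusted p = 9.78e-13). In MEFs Per1 had 43.5, 42.0 and 43.4 CPM in ferroptotic and 45.0, 41.9 and 43.7 CPM in control medium, which overlap (log2 change -0.02, SE 0.0452, adjusted p = 0.749). Without scaling beyond totals the MEF value of Per1 was 0.05. Per2 moved the other way in Hepa1, with 9.54, 12.8 and 11.4 CPM in ferroptotic and 7.40, 6.46 and 8.28 CPM in control medium. That is a rise of 0.60 on the log2 scale (SE 0.111, adjusted p = 3.49e-05) with no overlap between the groups. In MEFs Per2 had 15.8, 15.5 and 14.7 CPM in ferroptotic and 17.6, 17.1 and 18.3 CPM in control medium, a fall of 0.21 (SE 0.0677, adjusted p = 0.00810). The groups are apart, but without scaling beyond totals the Per2 log2 change in MEFs was -0.14 with adjusted p = 0.0828.

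Per3, whose product is held to be the least needed of the 3 PERIOD proteins for the rhythm itself, was scarce in Hepa1 and far higher in MEFs. It had 3.10, 3.71 and 4.50 CPM in Hepa1 in ferroptotic and 3.70, 3.20 and 3.27 CPM in Hepa1 in control medium, drawn from 62 to 93 reads a library, and the ranges overlap (log2 change 0.15, SE 0.157, adjusted p = 0.420). Without Hepa1 ferroptotic replicate 3 the Per3 value was 0.00. In MEFs Per3 had 54.0, 62.1 and 58.7 CPM in ferroptotic and 35.9, 37.0 and 33.4 CPM in control medium. This was the member with the largest rise in MEFs, 0.72 on the log2 scale (SE 0.0483, adjusted p = 1.46e-18), with all ferroptotic libraries above all control libraries. The Per3 window printed above holds a pair of D-boxes, whose part in these levels was not tested.

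The Cry genes encode the CRYPTOCHROME repressors. Cry1 had 34.0, 35.2 and 33.0 CPM in Hepa1 in ferroptotic and 35.9, 34.8 and 36.3 CPM in Hepa1 in control medium, while Cry1 stood at 16.2, 15.8 and 16.7 CPM in MEFs in ferroptotic and 18.5, 16.4 and 17.2 CPM in MEFs in control medium. The ranges overlap in both cell types, with log2 changes of -0.07 in Hepa1 (SE 0.0548, adjusted p = 0.314) and -0.10 in MEFs (SE 0.0681, adjusted p = 0.237). Cry2 had 27.1, 25.0 and 25.6 CPM in Hepa1 in ferroptotic and 30.3, 30.8 and 33.4 CPM in Hepa1 in control medium. It fell there by 0.28 on the log2 scale (SE 0.0612, adjusted p = 0.000269), with the groups apart. In MEFs Cry2 had 28.9, 30.9 and 29.5 CPM in ferroptotic and 32.6, 29.4 and 34.6 CPM in control medium. Those ranges overlap through MEF control replicate 2, and the log2 change of -0.11 (SE 0.0547, adjusted p = 0.0777) became -0.18 without that library (adjusted p = 0.0102).

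Bhlhe40 encodes DEC1, a repressor that binds E-boxes and is itself induced by many stimuli, such as serum, hypoxia and TGF-beta. It had 67.6, 65.5 and 62.1 CPM in Hepa1 in ferroptotic and 261, 272 and 287 CPM in Hepa1 in control medium. The groups lie far apart, a fall of 2.07 on the log2 scale (SE 0.0423, adjusted p = 1.62e-24), or a level 4.20 times lower. It was the only one of the 10 clock genes with a change of at least 1 on the log2 scale in Hepa1, and 0 reached that size in MEFs. In MEFs Bhlhe40 had 76.3, 77.4 and 75.0 CPM in ferroptotic and 80.0, 83.2 and 81.5 CPM in control medium. That fall of 0.10 (SE 0.0354, adjusted p = 0.0149) is small, and the call was lost with the DESeq2 Wald test (adjusted p = 0.0576), without scaling beyond totals (log2 change -0.03, adjusted p = 0.489), without MEF control replicate 2 (adjusted p = 0.0757) and without MEF ferroptotic replicate 3 (adjusted p = 0.0577).

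The PAR bZIP genes Dbp and Tef form the output arm. Dbp, a direct E-box target with wide daily swings in liver, had 6.44, 8.96 and 7.06 CPM in Hepa1 in ferroptotic and 3.65, 3.71 and 4.01 CPM in Hepa1 in control medium. Its ferroptotic libraries spread more than its control libraries but all lie above them, a rise of 0.98 on the log2 scale (SE 0.135, adjusted p = 4.73e-07). In MEFs Dbp had 72.2, 73.4 and 75.3 CPM in ferroptotic and 78.8, 77.9 and 82.2 CPM in control medium. That fall of 0.11 (SE 0.0363, adjusted p = 0.00783) was lost without scaling beyond totals (log2 change -0.04, adjusted p = 0.341). Exons of Dbp overlap those of Sphk2 on the other strand, and the strand setting of the counting is not given, so reads of the pair may not have been told apart. Sphk2 had 47.8 ± 0.554 CPM in Hepa1 in ferroptotic and 63.4 ± 6.73 CPM in Hepa1 in control medium (SD, n = 3), a log2 change of -0.41. The part of such shared reads in the Dbp values was not tested.

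Tef had 41.9, 42.9 and 40.7 CPM in Hepa1 in ferroptotic and 42.5, 38.3 and 43.1 CPM in Hepa1 in control medium. The groups overlap and the log2 change was 0.02 (SE 0.0549, adjusted p = 0.807), with -0.04 without Hepa1 control replicate 2 and 0.00 without Hepa1 ferroptotic replicate 2. In MEFs Tef had 169, 165 and 158 CPM in ferroptotic and 144, 134 and 135 CPM in control medium. All ferroptotic libraries were higher, a log2 change of 0.25 (SE 0.0320, adjusted p = 1.30e-09). Other antisense genes that overlap exons of Arntl, Cry2, Tef and Bhlhe40 had at most 9 reads in any group.

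**Figure D2:**
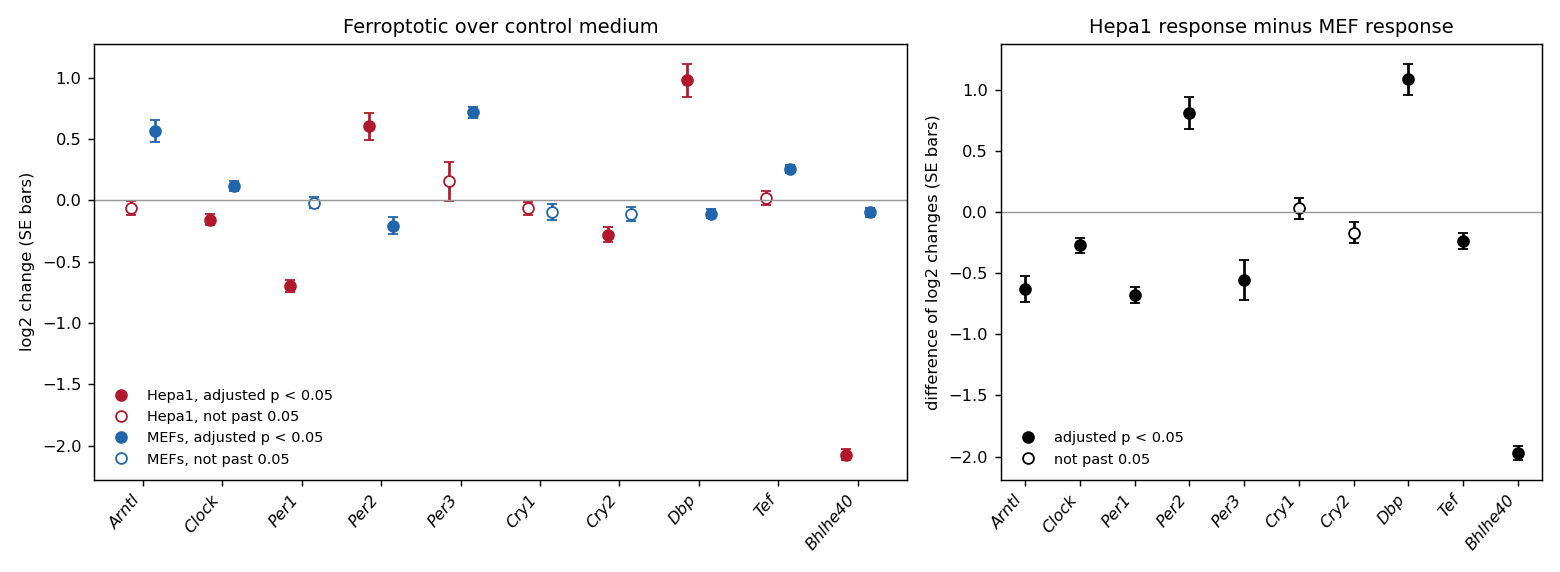
Left, log2 change of each clock gene in ferroptotic over control medium for Hepa1 (red) and MEFs (blue); right, the Hepa1 change minus the MEF change. Bars are SE and filled points have an adjusted p under 0.05 in edgeR; Bhlhe40 (-1.97) and Dbp (1.09) are the members whose difference reaches 1 in size.

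The responses of the cell types were compared directly in a fit over all 12 libraries. They differed for 8 of the 10 clock genes, while 44.2% of the 15627 genes tested were called, 23.3% higher and 20.9% lower, and the median size of the difference was 0.59 for the 10 against 0.34 over all genes. The Hepa1 response was the lower for 6 members. Bhlhe40 led with -1.97 (SE 0.0572, adjusted p = 1.37e-29), ahead of Per1 at -0.68 (SE 0.0670, adjusted p = 1.27e-11), Arntl at -0.63 (adjusted p = 2.77e-06), Per3 at -0.56 (adjusted p = 0.00452), Clock at -0.27 (adjusted p = 0.000265) and Tef at -0.24 (adjusted p = 0.00214). The Hepa1 response was the higher for Dbp, by 1.09 (SE 0.127, adjusted p = 9.23e-10), and for Per2, by 0.81 (SE 0.128, adjusted p = 8.20e-07). Clock, Per2 and Dbp each had calls of opposite sign in the 2 cell types. Their MEF calls were not firm, as given above. Those of Per2 and Dbp were lost without scaling beyond totals, and that of Clock on leaving out single libraries. For Cry1 (0.03, SE 0.0856, adjusted p = 0.827) and Cry2 (-0.17, SE 0.0844, adjusted p = 0.109) no difference was called, and Cry2 was called without MEF control replicate 3 (-0.22, adjusted p = 0.0366).

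The other core clock factors, a list of 11 genes, were read beside the members. Of 8 measured in Hepa1, 3 rose and 4 fell, and of 8 measured in MEFs, 2 rose and 5 fell, beside the shares of all genes given above. Nfil3, the repressor of D-box genes, fell by 0.83 in Hepa1, to 47.1 ± 2.62 CPM in ferroptotic against 83.4 ± 4.02 CPM in control medium (SD, n = 3, adjusted p = 3.46e-14). In MEFs Nfil3 fell by 1.06, to 12.9 ± 0.389 CPM in ferroptotic against 27.0 ± 2.17 CPM in control medium (adjusted p = 8.53e-20). Rora, a ROR activator, fell by 0.47 in Hepa1 (adjusted p = 4.92e-08) and by 0.34 in MEFs (adjusted p = 1.14e-11), and Nr1d2, which encodes REV-ERB beta, fell by 0.43 in Hepa1 (adjusted p = 1.62e-08) and by 0.23 in MEFs (adjusted p = 1.54e-07).

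Hlf, the third PAR bZIP activator, had the largest change in the list. It had 9.14, 10.2 and 10.3 CPM in Hepa1 in ferroptotic and 2.67, 1.83 and 2.37 CPM in Hepa1 in control medium, a log2 change of 2.11 (SE 0.135, adjusted p = 1.32e-13). In MEFs it had 27 reads in all in ferroptotic and 22 reads in all in control medium, too few to pass the filter there. Of the PAR bZIP genes in Hepa1, Dbp and Hlf thus rose and Tef had a log2 change of 0.02.

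Nr1d1, which encodes REV-ERB alpha, had log2 changes of -0.08 in Hepa1 (adjusted p = 0.306) and -0.11 in MEFs (adjusted p = 0.0210), and the MEF call was lost without MEF control replicate 2 (adjusted p = 0.178), without MEF ferroptotic replicate 2 (adjusted p = 0.201), with the DESeq2 Wald test (adjusted p = 0.0835) and without scaling beyond totals (adjusted p = 0.428). Its exons overlap those of Thra on the other strand, whose log2 changes were 0.71 in Hepa1 and 0.45 in MEFs. Ciart, which encodes the repressor CHRONO, had log2 changes of 0.29 in Hepa1 (adjusted p = 0.0153) and 0.90 in MEFs (adjusted p = 0.000448), where it had 135 reads in ferroptotic and 67 reads in control medium. The Hepa1 call of Ciart was lost on leaving out any of 4 libraries. The adjusted p was 0.0760 without control replicate 1, 0.0637 without control replicate 2, 0.145 without ferroptotic replicate 1 and 0.0547 without ferroptotic replicate 2.

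Bhlhe41, the paralogue of Bhlhe40, was read almost only in MEFs, with 1 read in Hepa1 in ferroptotic and 0 reads in Hepa1 in control medium, and 1537 and 1293 reads in MEFs in ferroptotic and control medium. Its log2 change in MEFs was 0.14 (adjusted p = 0.0490), a call that most alternative fits did not keep, among them the fit without MEF ferroptotic replicate 2 (0.10, adjusted p = 0.195) and the fits without MEF ferroptotic replicate 3 (adjusted p = 0.0647) and without MEF control replicate 1 (adjusted p = 0.122), 2 (adjusted p = 0.0566) or 3 (adjusted p = 0.119). Npas2, which can stand in for CLOCK, was near the floor in Hepa1 with 1 read in ferroptotic and 3 reads in control medium, and fell by 1.24 in MEFs (adjusted p = 0.000606) with 31 and 68 reads in ferroptotic and control medium. Arntl2 had log2 changes of -0.28 in Hepa1 (adjusted p = 0.0297) and 0.14 in MEFs (adjusted p = 0.474), and the Hepa1 call was lost in 6 alternatives. The adjusted p of Arntl2 was 0.121 without control replicate 1, 0.0510 without control replicate 2, 0.189 without ferroptotic replicate 2, 0.0668 without ferroptotic replicate 3, 0.0899 with the DESeq2 Wald test and 0.0693 without scaling. Rorb had 0 reads in every library.

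**Figure D3:**
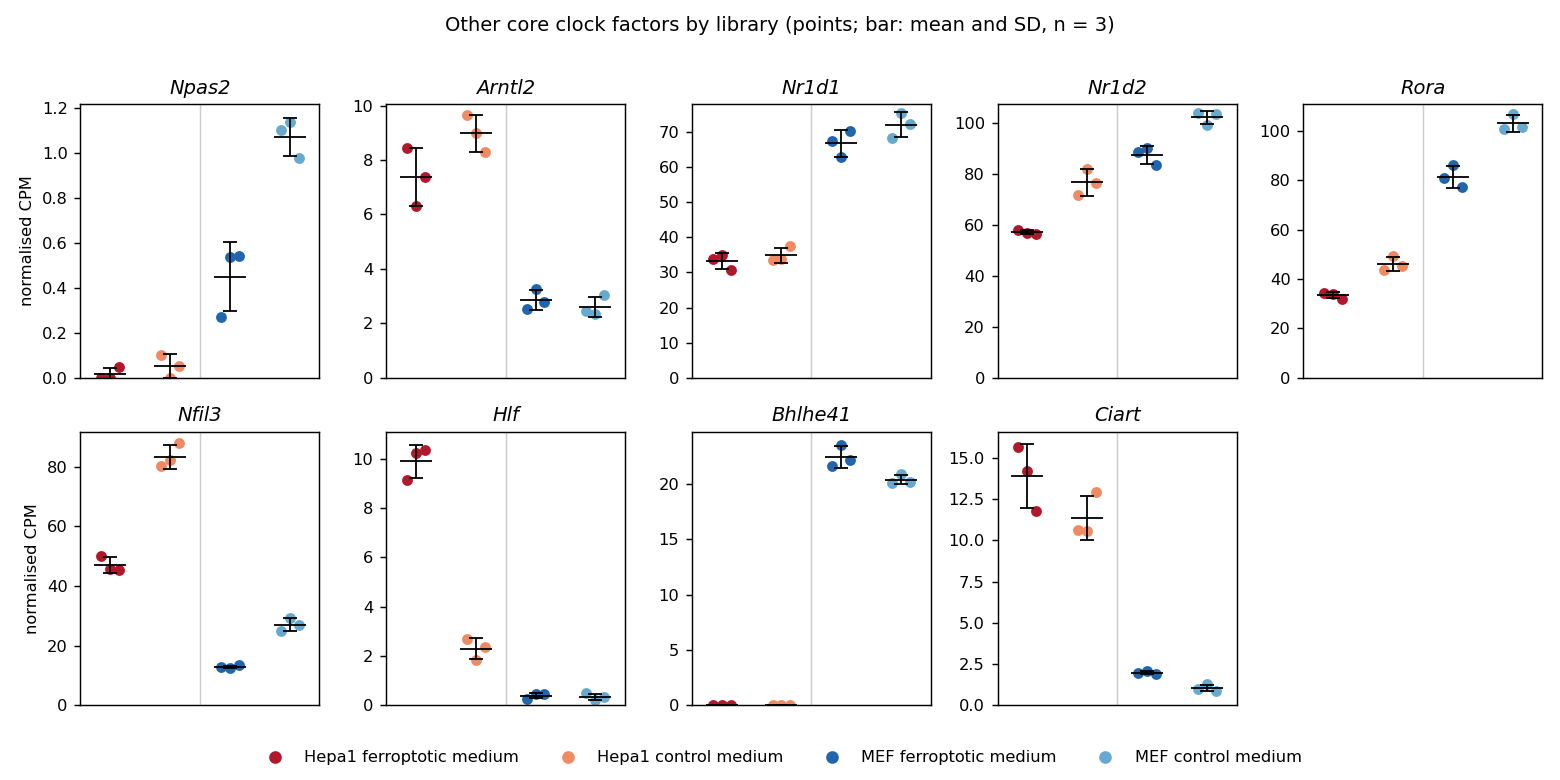
Normalised CPM of 9 other core clock factors in each library, with 1 panel per gene and a linear axis from 0; points are libraries and bars the mean and SD (n = 3). Hlf in Hepa1 is higher and Nfil3 in both cell types lower in ferroptotic medium, and Bhlhe41 in Hepa1 is at 0 or 1 read per group.

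Genes that act on clock proteins formed another list. Of 12 kinases, ubiquitin ligases and a deubiquitinase of the clock, 2 rose and 7 fell in Hepa1, where 29.3% of all genes were called higher and 28.8% lower, and 3 rose and 6 fell in MEFs, where 27.8% were called higher and 27.2% lower. Csnk1e, which encodes a kinase (not the only one) that marks PER proteins for degradation, fell by 1.04 in Hepa1 (SE 0.0430, adjusted p = 7.30e-18), as did Gsk3b by 0.33 (adjusted p = 6.97e-09). In MEFs the smallest adjusted p belonged to Prkaa1, a catalytic subunit of AMPK (-0.32, adjusted p = 6.00e-11), Fbxw11 (-0.25, adjusted p = 1.49e-09) and Csnk1a1 (-0.21, adjusted p = 4.10e-09).

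Of 8 genes known as outputs of the clock, 3 rose and 5 fell in Hepa1, and of 7 measured in MEFs 2 rose and 3 fell, while 58.1% of all genes were called in Hepa1 and 55.0% in MEFs. Noct, the gene of nocturnin, fell in both, by 1.20 in Hepa1 (SE 0.0920, adjusted p = 7.16e-12) and by 0.97 in MEFs (SE 0.0840, adjusted p = 1.29e-14). Alas1, which starts heme synthesis, fell by 0.73 in Hepa1 (adjusted p = 9.82e-13), and Lonrf3 by 0.92 (adjusted p = 6.20e-10). Nampt, whose product acts in the path from nicotinamide to NAD, rose by 0.50 in MEFs (adjusted p = 1.63e-17) and Klf10 by 0.53 (adjusted p = 1.55e-12).

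Levels can be roughly compared between genes once divided by exon length, as RPKM, which is CPM from total counts for each kilobase of exon. The length is that of all annotated exons of a gene merged. Which transcripts the cells used was not tested, so close ranks may depend on it. In Hepa1 in ferroptotic medium the order was Bhlhe40 (14.0 ± 0.595), Cry1 (10.4 ± 0.337), Per1 (7.58 ± 0.0895), Tef (5.39 ± 0.139), Clock (4.53 ± 0.0445), Arntl (4.34 ± 0.262), Cry2 (4.16 ± 0.174), Dbp (2.54 ± 0.445), Per2 (1.95 ± 0.281) and Per3 (0.398 ± 0.0742) RPKM (SD, n = 3). The ranges of Clock and Arntl, of Arntl and Cry2, and of Dbp and Per2 overlap there. In Hepa1 in control medium Bhlhe40 stood at 57.1 ± 2.34 RPKM, with Per1 at 11.9 ± 0.494 RPKM next. Tef, Cry2 and Clock could not be ranked there, nor could Dbp (1.24 ± 0.0554 RPKM) and Per2 (1.24 ± 0.148 RPKM).

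In MEFs the output genes led. In ferroptotic medium Dbp had 25.2 ± 0.613 RPKM, Tef 21.4 ± 0.665 RPKM and Bhlhe40 16.6 ± 0.207 RPKM, and Arntl was last with 1.58 ± 0.114 RPKM. In MEFs in control medium Dbp had 26.0 ± 0.799 RPKM, Tef 17.1 ± 0.804 RPKM and Bhlhe40 16.9 ± 0.202 RPKM, where the ranges of Tef and Bhlhe40 overlap, and Arntl had 1.02 ± 0.0704 RPKM. Cry1 and Cry2 overlap in MEFs in both media.

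**Figure D4:**
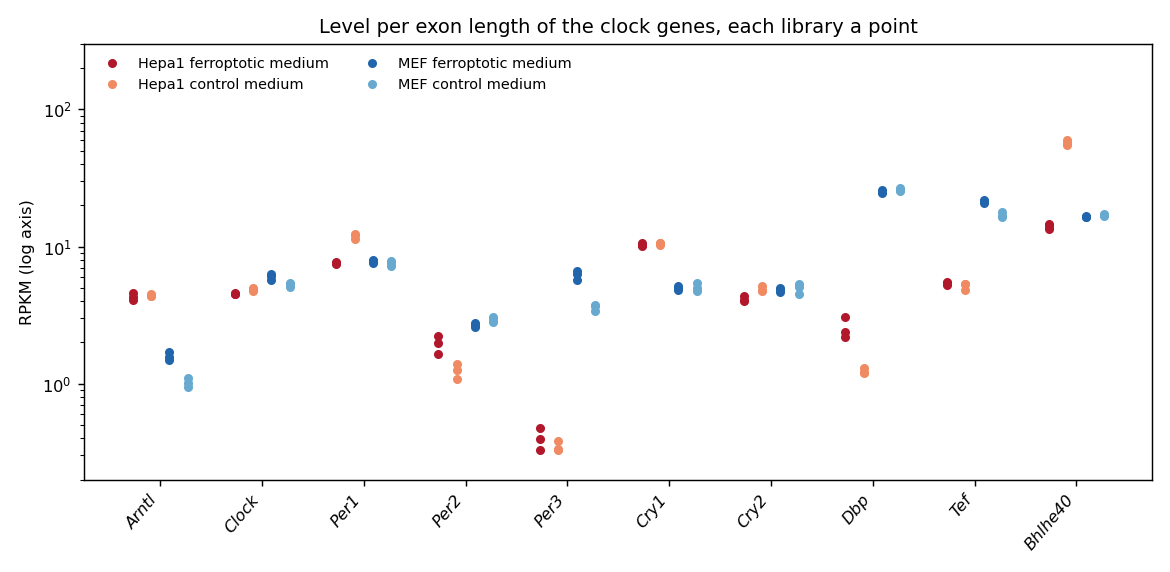
RPKM of the 10 clock genes on a log axis, each point a library. Dbp, Tef and Per3 are lower and Arntl and Cry1 higher in Hepa1 than in MEFs, and Bhlhe40 in Hepa1 stands above the MEF libraries in control medium (57.1 against 16.9) and below them in ferroptotic medium (14.0 against 16.6).

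Most clock genes were read at different levels in Hepa1 and MEFs. Cell type, Bach1 genotype and an unstated phase of any rhythm cannot be told apart in these differences. In ferroptotic medium all 10 differed between Hepa1 and MEFs, 2 higher and 8 lower in Hepa1, and in control medium 9 did, 3 higher and 6 lower. Over all 15627 genes 88.2% were called in ferroptotic medium, 41.5% higher and 46.7% lower, and 86.6% in control medium, 40.7% higher and 46.0% lower, so the members' counts are near those of all genes. The scaling matters for these differences. Without scaling beyond totals the median log2 difference of all genes was 0.46 in ferroptotic and 0.49 in control medium, in place of -0.08 and -0.08, and the split of calls was 9028 higher and 5109 lower in ferroptotic medium (in place of 6491 and 7294) and 9101 higher and 5004 lower in control medium (in place of 6356 and 7181). Values below are with trimmed-mean scaling, and those without scaling are given where the call or sign depends on it or the value moves by over 1.5 times.

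Dbp and Per3 were the furthest apart. Dbp was lower in Hepa1, with a log2 difference of -3.85 in ferroptotic (SE 0.0648) and -4.94 in control medium (SE 0.0737). Per3 differed by -4.49 in ferroptotic and -3.94 in control medium, Tef by -2.53 and -2.29, and Per2 by -1.00005 and -1.81. Arntl was higher in Hepa1, by 0.92 in ferroptotic and 1.55 in control medium, and so was Cry1, by 0.52 and 0.49. Each of these had an adjusted p of at most 6.34e-10 and kept its sign and call without scaling. Without scaling Per2 had -0.46 and Arntl 1.46 in ferroptotic medium, and Cry1 had 1.06 in ferroptotic and 1.05 in control medium. Bhlhe40 changed places, with -0.78 in ferroptotic (SE 0.0427, adjusted p = 2.33e-21) and 1.19 in control medium (SE 0.0380, adjusted p = 1.80e-30). Without scaling those Bhlhe40 differences were -0.24 and 1.75, so the sign differed between the media with and without scaling. Clock was lower in Hepa1, with -0.94 in ferroptotic and -0.67 in control medium, which without scaling shrank to -0.40 and -0.11 (adjusted p = 1.53e-11 and 0.0177). Cry2 had -0.75 in ferroptotic and -0.58 in control medium, which shrank to -0.21 (adjusted p = 0.00147) and -0.02 (adjusted p = 0.746). Per1 was lower in Hepa1 by -0.58 in ferroptotic medium, which became -0.04 without scaling (adjusted p = 0.389). In control medium Per1 had 0.09 (adjusted p = 0.0583), which was called without scaling (0.66, adjusted p = 6.81e-17), without Hepa1 control replicate 1 (0.14, adjusted p = 0.0107) and without MEF control replicate 1 (0.12, adjusted p = 0.0294).

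The genes whose pattern was most like that of each clock gene were sought among 11873 protein-coding genes whose mean reached 1 CPM, by the distance between mean log2 CPM over the 4 groups after centring. The nearest were Sltm for Arntl (distance 0.0668), Cog4 for Clock (0.0351), Ubqln2 for Per1 (0.0796), Man2a1 for Per2 (0.0381) and Vit for Per3 (0.0909). They were Wbp11 for Cry1 (0.0238), Pced1a for Cry2 (0.0176), Smim1 for Dbp (0.160), Tmem132e for Tef (0.0374) and Tnfrsf22 for Bhlhe40 (0.241), which thus had the least close neighbour. Of the 20 nearest genes of each member, 0 were other members or other core clock factors. With so few clock genes among 11873 candidates, few or none would be met by chance either. The count therefore does not tell whether clock genes share patterns.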

How the data were processed

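Raw counts of reads on Ensembl genes were deposited both by sample and as a series table, whose values were identical (0 differences). The submitters' processing notes name HTSeq 0.9.1, STAR 2.7.10a, Trimmomatic 0.39, FastQC 0.11.9 and the build GRCm38 (mm10). Which annotation release and strand setting were used is not given in the sources used. The 5 HTSeq summary lines were set apart; reads on no gene made up 2.00 to 2.58% and ambiguous reads 3.66 to 4.03%. GENCODE M21 named 55227 of the 55487 genes and gave exon lengths and overlaps.

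Groups came from the sample titles. Counts were tested in R 4.3.3 with edgeR 4.0.16 (quasi-likelihood F-test) after filterByExpr and trimmed-mean (TMM) scaling, with Benjamini-Hochberg adjustment over all genes tested and a call at adjusted p under 0.05. SE were taken from the log2 change and its F statistic. The medium was tested on the 6 libraries of each cell type, and the difference of responses and of cell types on all 12. CPM in the text are scaled within each cell type's fit unless summed over marker lists or compared per length, which use total counts. For genes with at most 3 reads in a group, no fitted fold is given within that cell type or across the cell types. Floors of 3 reads cover counting error only. The labels do not state whether replicates were separate cultures. The p-values therefore measure the spread between these samples alone, which may be technical. Replicate pairs differed beyond counting noise in every group.

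Each library was left out in turn, and other settings were limma 3.58.1 (voom), the Wald test and size factors of DESeq2 1.42.0, scaling by totals alone, other filters, other sample sets and a replicate block. The pipeline was tested on simulated data. The members, gene lists and rule for named genes were chosen with earlier results of these data known. The rule names all members, all other core clock factors, and up to 3 genes of each further list per cell type with the smallest adjusted p. Genes given for strand overlap, cell type markers such as Col1a2, and Bach1 and Fkbp5 are outside it. Some genes that the rule names are not reported here, though list counts include them.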

Additional observations from a re-analysis of the deposited data

Results flagged for a closer look

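Among the clock genes, the responses of Hepa1 and MEFs to the medium differed in an interaction test (edgeR, adjusted p under 0.05) for Bhlhe40 (-1.97), Per1 (-0.68), Arntl (-0.63), Per3 (-0.56), Clock (-0.27), Tef (-0.24), Per2 (0.81) and Dbp (1.09), each as the log2 response of Hepa1 minus that of MEFs. Among the other core factors it differed for Hlf (1.93), Nfil3 (0.24), Nr1d2 (-0.20) and Ciart (-0.61). The Hlf value rests on 27 reads in MEFs in ferroptotic and 22 reads in MEFs in control medium. The Nfil3 call was lost without Hepa1 control replicate 1 (adjusted p = 0.0511), Hepa1 ferroptotic replicate 1 (adjusted p = 0.0702), MEF control replicate 2 (adjusted p = 0.121), MEF ferroptotic replicate 1 (adjusted p = 0.0565) or 2 (adjusted p = 0.0608). The Ciart call was lost in limma-voom (adjusted p = 0.0755), with the DESeq2 Wald test (adjusted p = 0.0594) and in most fits that left out a library.

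Of genes that act on clock proteins, the difference was -0.82 for Csnk1e, -0.46 for Gsk3b, 0.49 for Csnk1a1, 0.28 for Prkaa1 and 0.14 for Fbxw11. Of outputs it was -0.74 for Alas1, -0.73 for Nampt and -0.17 for Klf10. The Fbxw11 call was lost without MEF ferroptotic replicate 2 (adjusted p = 0.0584) and the Klf10 call without MEF ferroptotic replicate 3 (adjusted p = 0.108) or the count filter (adjusted p = 0.0671). Of cAMP and glucocorticoid response genes it was 1.18 for Pde4d, 0.83 for Nr4a2, 1.09 for Sgk1, -0.38 for Tsc22d3 and -1.23 for Dusp1. Apart from the fits that left out a library and the Col1a2 reads given above, groups of 3 libraries were not searched for a single deviating sample.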

How the results depend on the processing

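The number of clock genes called was 6 in Hepa1 in all 14 alternative fits and 8 to 9 of 10 for the difference of responses over 19 alternatives. Between cell types it was 9 to 10 over 20 alternatives in each medium. In MEFs it was 4 to 7, with 4 in place of 7 in the fit without scaling beyond totals. Signs turned for 7 values that were not called in either fit. With single libraries left out, Tef in Hepa1 ran from -0.0364 (without Hepa1 control replicate 2) to 0.0470, and was also below 0 without Hepa1 ferroptotic replicate 2. Per1 in MEFs ran from -0.0478 to 0.00397 (without MEF control replicate 1), and was 0.0498 without scaling. As the difference of responses, Cry1 ran from -0.0200 (without MEF control replicate 1) to 0.0690, and Nr1d1 from -0.0129 (without MEF ferroptotic replicate 2) to 0.0884, and it was also below 0 without MEF control replicate 2. The cause was not tested. The replicate block changed no call of a clock gene, and 6 were called with it in Hepa1 and 7 in MEFs. Same-numbered control and ferroptotic libraries did not deviate together (correlations of -0.0180 to 0.0261), so replicate numbers were not treated as pairs.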

Other observations

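Signals through cAMP and glucocorticoids are known inputs to the clock. Of 7 measured cAMP and CREB response genes in Hepa1, 0 rose and 4 fell, and of 8 in MEFs 0 rose and 7 fell, beside 28.8% and 27.2% of all genes called lower. Nr4a1, an orphan nuclear receptor gene, fell by 1.56 in Hepa1, to 12.3 ± 1.35 CPM in ferroptotic against 36.4 ± 1.65 CPM in control medium (SD, n = 3, edgeR adjusted p = 1.10e-16), and by 1.37 in MEFs, to 8.37 ± 0.348 CPM in ferroptotic against 21.7 ± 2.98 CPM in control medium (adjusted p = 1.98e-20). Sik1 (-0.50) and Fos (-0.74) fell in Hepa1, and Pde4d (-1.40) and Nr4a2 (-0.75) in MEFs.

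Of 7 measured glucocorticoid response genes in Hepa1, 0 rose and 5 fell, Per1 among them, and of 8 in MEFs 2 rose and 3 fell. Fkbp5 of this list had 1.67 ± 0.0190 RPKM in Hepa1 in ferroptotic and 1.71 ± 0.166 RPKM in Hepa1 in control medium. In MEFs Fkbp5 had 0.599 ± 0.0414 RPKM in ferroptotic and 0.651 ± 0.0806 RPKM in control medium (SD, n = 3). Tsc22d3 in Hepa1 had 6.31 ± 0.0731 RPKM in ferroptotic and 5.57 ± 0.113 RPKM in control medium. Over all genes 29.3% were called higher and 28.8% lower in Hepa1, and 27.8% higher and 27.2% lower in MEFs. The list also holds Klf9, which is among the clock outputs. Sgk1, a serum and glucocorticoid regulated kinase gene, fell by 1.11 in Hepa1, to 74.9 ± 1.12 CPM in ferroptotic against 162 ± 9.87 CPM in control medium (edgeR adjusted p = 2.06e-18), and by 2.20 in MEFs, to 33.1 ± 0.776 CPM in ferroptotic against 152 ± 5.07 CPM in control medium (adjusted p = 3.81e-44). Dusp1 fell by 2.13 in Hepa1 (adjusted p = 3.73e-22) and by 0.89 in MEFs (adjusted p = 8.64e-20), while Tsc22d3, the gene of GILZ, rose by a log2 of 0.52 in MEFs (adjusted p = 1.49e-12). The part of these signals in the levels of the clock genes was not tested.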
